A study of Mus musculus with 6 samples.

Results

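Metallothioneins and the transporters of zinc, copper and iron were followed in mouse CD4+ T cells exposed to icilin, a synthetic agonist of the cold- and irritant-sensing cation channels TRPM8 and TRPA1 that gives a cooling sensation. The genes were taken by name: the metallothionein genes Mt1 to Mt4, the zinc sensor gene Mtf1, Slc30a1 to Slc30a10, Slc39a1 to Slc39a14, and the copper and iron transporter genes Slc31a1, Slc11a2 and Atp7a. Of these 32 genes, 30 had a probe set that the array annotation assigns to 1 gene symbol, out of 22180 such genes in all. The exporter genes Slc30a1 and Slc30a10 were not analysed here, because each of their probe sets carries several symbols.

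The cells were splenic CD4+ T cells of wild-type C57BL/6 female mice about 8 weeks old. All of them were first stimulated for 24 h with antibodies to CD3 and CD28, each at 10 µg/mL. Icilin at 100 µM was then present for 24 h, dissolved in dimethyl sulfoxide, or the solvent alone was added as vehicle. There were 3 arrays for icilin and 3 for vehicle, and the same 3 mice gave the cells of both. Every gene had its level read on Mouse Gene 2.0 ST arrays as an RMA value on the log2 scale, so that a difference of 1 is a doubling. Because no sample was left without stimulation or without solvent, the data show icilin against vehicle in activated cells only.

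Zinc inside a cell is held low by binding proteins and by carriers of opposite direction. Metallothioneins are small cysteine-rich proteins that bind zinc and copper, and their genes are switched on by MTF1, a transcription factor that senses free zinc and binds metal response elements in promoters. Proteins of the SLC39 (ZIP) family carry zinc into the cytosol from outside or from organelles. Those of the SLC30 (ZnT) family mostly carry it out of the cytosol. T cells take up zinc on activation, and the zinc signal bears on kinases close to the T cell receptor.

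The promoters of the metallothionein genes are shown because this family holds the members that changed. Each run is the 250 bases before the gene start in RefSeq (GRCm38.p6, plus strand of chromosome 8), read 5′ to 3′, with metal response element cores in capitals. The cores searched were TGCACNC and TGCGCNC on both strands. The Mt1 run lies at chr8:94178839-94179088, the Mt2 run at chr8:94172368-94172617, the Mt3 run at chr8:94152357-94152606 and the Mt4 run at chr8:94136954-94137203.
Mt1: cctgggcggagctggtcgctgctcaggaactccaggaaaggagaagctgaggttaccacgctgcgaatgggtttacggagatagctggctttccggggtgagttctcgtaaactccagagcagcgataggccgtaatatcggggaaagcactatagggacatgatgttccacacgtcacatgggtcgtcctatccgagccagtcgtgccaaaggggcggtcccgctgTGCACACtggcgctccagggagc
Mt2: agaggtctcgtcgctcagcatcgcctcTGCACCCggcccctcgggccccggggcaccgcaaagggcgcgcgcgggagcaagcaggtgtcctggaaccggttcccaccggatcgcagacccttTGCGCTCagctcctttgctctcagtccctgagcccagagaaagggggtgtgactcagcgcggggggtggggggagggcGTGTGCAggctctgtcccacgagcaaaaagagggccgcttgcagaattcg
Mt3: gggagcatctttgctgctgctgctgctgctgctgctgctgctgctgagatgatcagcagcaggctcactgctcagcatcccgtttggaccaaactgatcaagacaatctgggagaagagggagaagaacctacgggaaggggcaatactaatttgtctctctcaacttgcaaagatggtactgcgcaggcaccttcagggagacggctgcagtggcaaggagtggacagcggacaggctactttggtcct
Mt4: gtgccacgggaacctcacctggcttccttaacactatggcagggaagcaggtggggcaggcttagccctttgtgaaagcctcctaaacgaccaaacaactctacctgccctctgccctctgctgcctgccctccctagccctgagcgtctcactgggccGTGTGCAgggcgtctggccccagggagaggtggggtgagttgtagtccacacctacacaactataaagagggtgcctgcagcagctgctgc

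Including the 50 bases after the start, Mt2 had 4 such cores and Mt1 had 3, while Mt3 and Mt4 had 1 each. Beyond the printed runs, the cores of Mt1 after the start lay at bases 3 to 9 and 21 to 27, that of Mt2 at bases 5 to 11 and that of Mt3 at bases 28 to 34. At least 3 cores were present in 1.97% of all 32851 RefSeq promoter windows of this length, and at least 1 in 25.7%. Among the listed genes, the exporter genes Slc30a4 (difference of -0.21, not called) and Slc30a10 (not analysed) also had 3 cores. Of the listed genes, 27 had a window (32 windows in all), and 17 of these windows held a core, or 53.1%. The hypoxia response element core (ACGTG or GCGTG, which overlaps other motifs) occurred in 19 of the 32 windows, or 59.4%, against 43.8% of all windows. In Mt2, 1 of its hypoxia cores overlapped a metal response element core. The antioxidant core TGACNNNGC was found in 7 of the 32 windows, or 21.9%, against 12.4% of all windows, and among the metallothionein genes in that of Mt2. Both windows of Slc39a10 lacked all 3 motifs. A match describes letters in these windows and is not a measured binding site. Whether transcription in these cells begins at the annotated starts was not tested, so cores near another start could lie outside these windows.

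**Figure D1:**
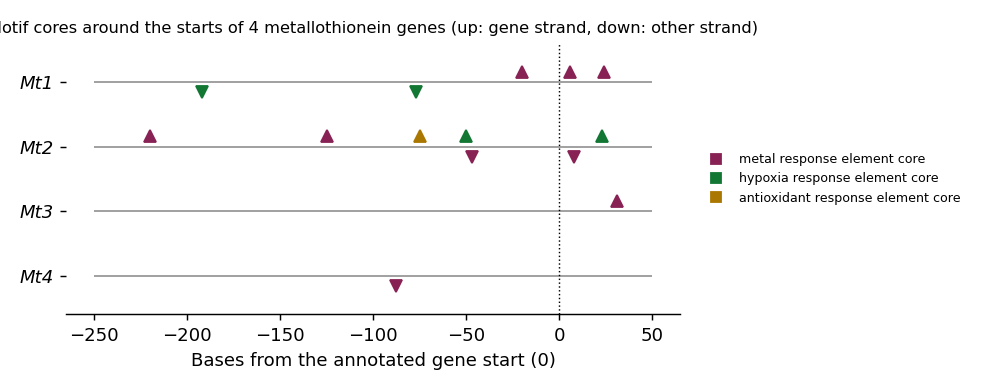
Positions of motif cores around the starts of the metallothionein genes, in bases from the annotated start; triangles pointing up are on the gene's strand and those pointing down on the other strand. Mt1 and Mt2 carry 3 and 4 metal response element cores, and Mt3 and Mt4 carry 1 each.

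The arrays correlated closely and showed the labelled cell type. Over all genes (no independent replicates of each other), arrays of 1 group correlated at r of 0.996 and arrays of different groups at 0.994. The small number of arrays limits precision, with a median standard error (SE) of a log2 difference of 0.09, and the p-values measure the spread between these samples. The defining T cell genes Cd3e (11.7 in vehicle and 11.6 in icilin arrays) and Cd4 (11.0 and 11.1) were high, and none of the 7 measured T cell markers was called by limma or by significance analysis of microarrays (SAM), although Cd28, higher by 0.34, had a limma adjusted p of 0.0529 and was the only one with an unadjusted p under 0.05. Of 21 measured markers of B, myeloid, dendritic, natural killer, CD8, red and platelet lineages, the CD8 gene Cd8b1 was brightest in icilin arrays, at 6.86 (6.47 in vehicle). Among the 21, only the B cell gene Ms4a1 was called by limma or SAM, and it rose by 1.01 ± 0.10 to a level of 5.09.

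Mt1 and Mt2 fell, and they were the members called. A gene counts as called at a Benjamini-Hochberg adjusted p under 0.1 over all genes with a difference of at least 1.5-fold, the limits the study states. By limma 2 of the 30 measured members were called lower, where 1.03% of all genes were. None of the 30 was called higher by limma or by SAM, where 0.370% of all genes were by limma. At an unadjusted p under 0.05, 7 of the 30 were lower, against 8.05% of all genes, and 1 was higher, against 9.09%. Since the arrays give bulk RNA, fewer cells expressing a gene and less RNA per cell cannot be told apart.

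In the vehicle arrays Mt1 stood at 10.44, 10.40 and 10.34 on the log2 scale, and in the icilin arrays at 9.33, 9.27 and 9.59. The groups were far apart, and icilin replicate 3 was the least reduced. The difference was -0.99 ± 0.10 (SE; n = 3 in each group), or 1.99-fold lower (limma adjusted p = 0.00339). Mt2, its neighbour and close paralog, had vehicle values of 9.98, 9.80 and 9.50 and icilin values of 8.57, 8.42 and 8.95. Here too the groups did not overlap and icilin replicate 3 was the highest of its group, so that both genes ordered the arrays of either group alike. For Mt2 the difference was -1.11 ± 0.17 (2.16-fold lower, limma adjusted p = 0.0184). The fall of Mt2 exceeded that of Mt1 by 0.12 ± 0.13 (SE), with a p of 0.4 in a two-sided exact permutation test over arrays, which at 3 against 3 cannot give less than 0.1. Mt1 and Mt2 are near copies of each other. The probes' sequences were not used here, so how far the 2 probe sets also read each other's RNA was not tested.

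Mt3, known mainly from brain, and Mt4, known from stratified epithelia, belong to the same family and did not pass. Mt3 had vehicle values of 5.52, 5.62 and 5.57 and icilin values of 5.70, 5.53 and 5.52, a difference of 0.01 with a 95% interval of -0.16 to 0.19. For Mt4 the vehicle arrays gave 3.88, 3.99 and 3.94 and the icilin arrays 3.95, 4.09 and 3.90, a difference of 0.05 (95% interval -0.13 to 0.22). In both genes the groups overlapped, and the signs turned with single arrays left out. The changes of Mt1 and Mt3 differed by -1.01 ± 0.14 (SE) and those of Mt2 and Mt4 by -1.16 ± 0.26, each with an exact permutation p = 0.1, the smallest that 3 against 3 arrays can give (adjusted p = 0.114 over 8 pairs of genes compared in this way). Because Mt1 and Mt2 were called in these same data, those p add no separate support. Mt4 was dimmer than most genes, at brightness percentile 39.6, so a change in it could go unseen.

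Mtf1, which encodes the zinc-sensing activator of the metallothionein genes, was not called. Its values were 7.38, 7.33 and 7.28 in vehicle and 7.42, 7.40 and 7.55 in icilin arrays. All 3 icilin arrays lay above the vehicle arrays by a small margin. The difference was 0.12 ± 0.07 (SE), with a 95% interval of -0.04 to 0.29 and a limma adjusted p = 0.447.

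**Figure D2:**
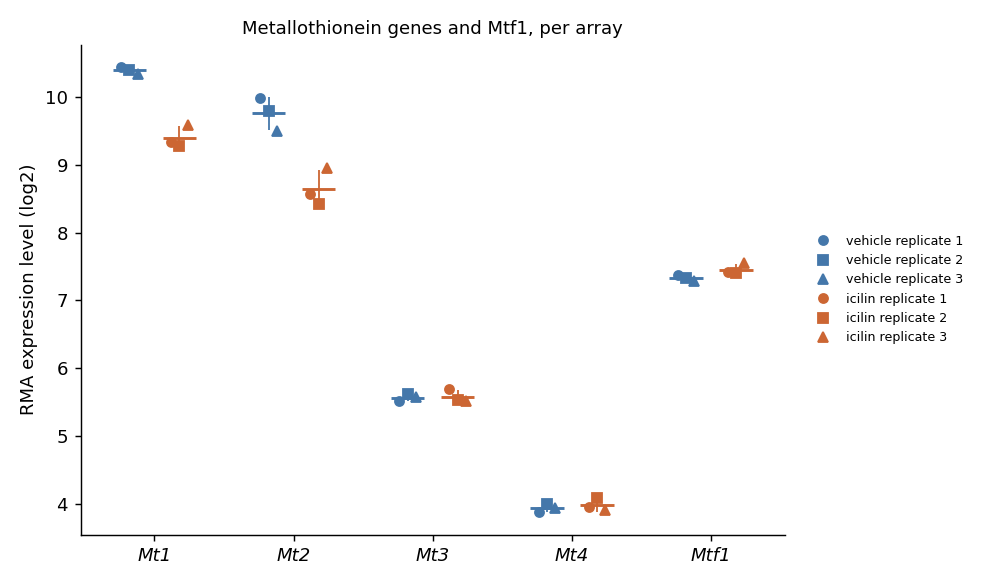
RMA level (log2) of the metallothionein genes and Mtf1 on each array; points are arrays, horizontal lines group means and vertical lines SD (n = 3). The vehicle and icilin arrays of Mt1 and Mt2 do not overlap, whereas those of Mt3 and Mt4 do.

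Along the chromosome the falls were limited to Mt1 and Mt2 among the genes examined. In the RefSeq order, no other measured protein-coding gene lies between the metallothionein genes. On the side of Mt4 the nearest 3 were Nudt21 (-0.01), an mRNA processing factor gene, Ogfod1 (-0.02), a hydroxylase gene, and Bbs2 (-0.01), a gene of cilium trafficking. On the side of Mt1 stood Nup93 (0.14, adjusted p = 0.288), a nuclear pore gene, Slc12a3 (-0.12, adjusted p = 0.636), a chloride cotransporter gene, and Herpud1. Herpud1, a gene of endoplasmic reticulum protein quality control, was higher, with vehicle values of 9.44, 9.34 and 9.44 and icilin values of 9.88, 9.82 and 9.85 (0.45 ± 0.06, limma adjusted p = 0.0151), short of 1.5-fold. Of the 6 neighbours none was lower by limma, SAM or an unadjusted p under 0.05, and Herpud1 moved in the opposite direction to Mt1 and Mt2.

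**Figure D3:**
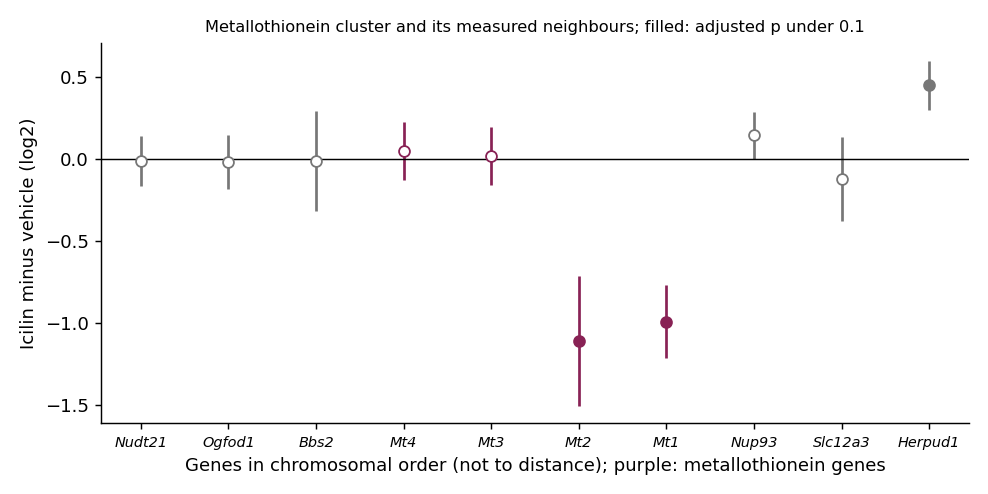
Icilin minus vehicle (log2) with 95% intervals for the metallothionein genes and the nearest 3 measured protein-coding genes on either side, in chromosomal order and not to distance. Mt2 and Mt1 lie at -1.11 and -0.99, the genes before Mt4 near 0, and Herpud1 at 0.45.

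None of the 25 measured transporter genes reached the fold limit with an adjusted p under 0.1, by limma or by SAM. Without the fold limit, 5 of the 30 members were lower by limma (3.00% of all genes) and 1 was higher (2.27% of all genes). Besides Mt1 and Mt2, these were Slc30a9, Slc39a10 and Slc39a1 on the lower side and Slc39a7 on the higher. The 3 icilin arrays lay wholly below the vehicle arrays in 8 members (10.5% of all genes) and wholly above them in 4 (13.6% of all genes). Over all 30 members the median difference was -0.04, and over all genes it was 0.01.

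Among the SLC30 exporters, the largest difference was that of Slc30a9, a carrier linked to zinc export from mitochondria. Its vehicle values were 8.86, 9.10 and 8.99 and its icilin values 8.48, 8.51 and 8.38. The groups stood clearly apart, by -0.53 ± 0.08 (SE), which is 1.44-fold (limma adjusted p = 0.0206). Without vehicle replicate 1, the lowest of its group, the difference was -0.59 and passed the fold limit too (limma adjusted p = 0.0331).

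Slc30a5 and Slc30a6, whose proteins pair to load zinc into enzymes of the secretory pathway, were not called either. Slc30a5 had vehicle values of 8.82, 8.78 and 8.76 and icilin values of 8.93, 8.86 and 9.04. Its icilin arrays were all higher, by 0.15 ± 0.07 (SE; limma adjusted p = 0.325). Slc30a6 had 8.94, 8.91 and 8.80 in vehicle and 8.84, 8.72 and 8.93 in icilin arrays, an overlap, with a difference of -0.05. Slc30a7, another carrier of the early secretory pathway, stood at -0.06 and Slc30a4, a vesicular exporter gene, at -0.21 (limma adjusted p = 0.200). The vesicle carriers of other tissues, Slc30a2 (-0.02), Slc30a3 (-0.02) and Slc30a8 (-0.10), had mean levels of at most 4.67 in either group. Slc30a8, a gene of pancreatic beta cells, was the dimmest, at brightness percentile 8.74. In all, 7 of the 8 measured exporters had a difference below 0, where 10431 of all 22180 genes had, and their median was -0.06. Slc30a2 and Slc30a3 turned to just above 0 when arrays were centred on their median (0.0014 and 0.0098). At an unadjusted p under 0.05, 2 of the 8 exporters were lower (8.05% of all genes) and none higher (9.09% of all genes).

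Among the SLC39 importers, Slc39a10, a plasma membrane carrier needed by lymphocytes, was lowest relative to vehicle. It measured 8.88, 8.79 and 8.74 in vehicle and 8.27, 8.28 and 8.29 in icilin arrays. The icilin arrays were nearly identical and all lay well below the vehicle arrays. Its difference of -0.52 ± 0.06 (SE) corresponds to 1.44-fold (limma adjusted p = 0.00854). Slc39a10 is known from other tissues as a gene that MTF1 represses when zinc is plentiful.

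Slc39a1, a widely expressed importer of the plasma membrane, was lower as well, at 9.17, 9.11 and 9.20 in vehicle and 8.81, 8.81 and 8.77 in icilin arrays. The groups did not overlap and each spanned less than the gap between them. The difference was -0.36 ± 0.06 (SE; limma adjusted p = 0.0273), and without icilin replicate 3 it no longer passed. Slc39a7, which releases zinc from the endoplasmic reticulum, went the other way, from 8.18, 8.17 and 8.13 in vehicle to 8.45, 8.36 and 8.49 in icilin arrays. All icilin arrays were higher, by 0.27 ± 0.07 (SE; limma adjusted p = 0.0847). That adjusted p rose above 0.1 when any 1 of the arrays was left out and by SAM.

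The importers best known from T cell activation did not pass. Slc39a6, which takes part in zinc influx at the immune synapse, had vehicle values of 8.25, 8.38 and 8.25 and icilin values of 8.42, 8.31 and 8.36. The groups overlapped, and the 95% interval of the difference ran from -0.10 to 0.23. Slc39a8, which moves zinc out of lysosomes in activated T cells, stood at -0.06 with an interval of -0.22 to 0.11. Slc39a14, an importer that also takes up iron and manganese, had a difference of -0.21 (limma adjusted p = 0.243), and the intestinal importer gene Slc39a4 one of -0.15 (adjusted p = 0.297). In both, all icilin arrays were below all vehicle arrays, yet neither passed. Of the carriers in Golgi and other inner membranes, Slc39a9 stood at 0.07, Slc39a11 at 0.16 and Slc39a13 at -0.06. The remaining importers were Slc39a3 (-0.10), Slc39a5 (0.13), Slc39a2 (0.03) and Slc39a12 (0.12), none of which passed. Slc39a12, known from brain, was dim, at brightness percentile 21.1.

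**Figure D4:**
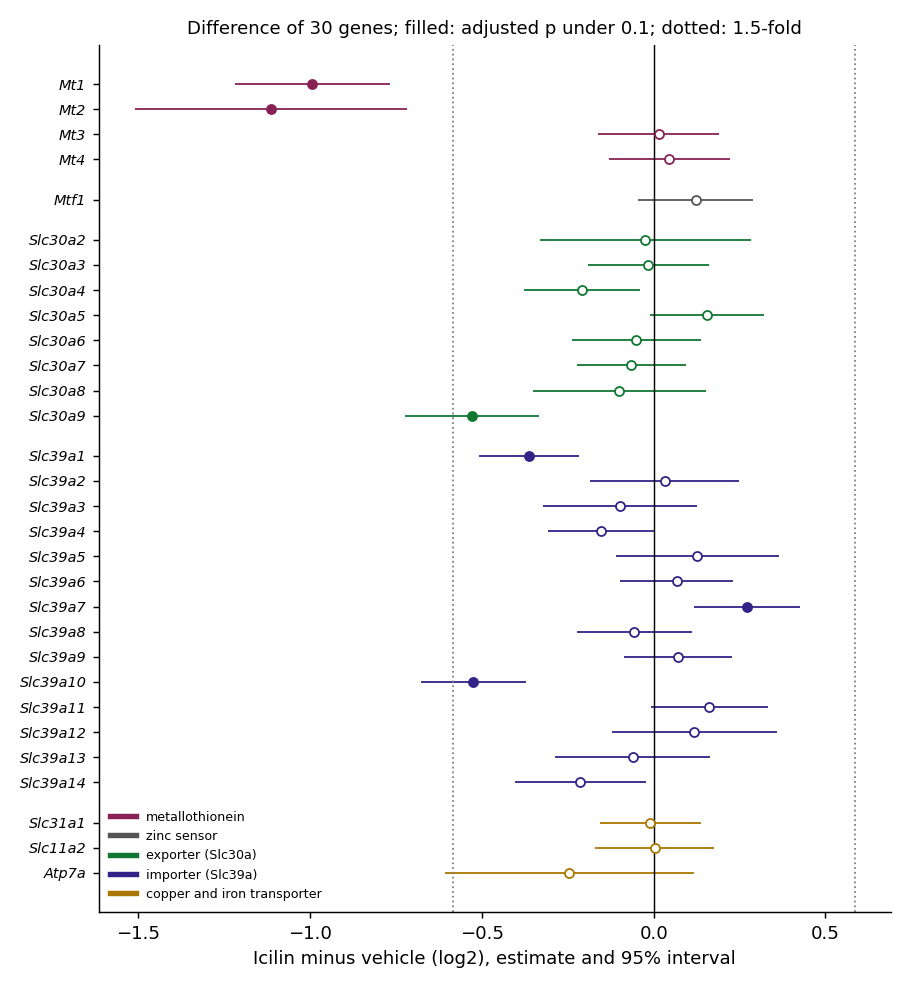
Icilin minus vehicle (log2) with 95% intervals from limma for the 30 measured members, grouped by role; filled points have an adjusted p under 0.1 and dotted lines mark 1.5-fold. Mt1 and Mt2 alone lie beyond the dotted line, and Slc30a9, Slc39a10, Slc39a1 and Slc39a7 are the other filled points.

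Importers and exporters were compared as families by their medians and means. Of the 14 importers, 3 were lower and 1 was higher with an unadjusted p under 0.05, against 8.05% and 9.09% of all genes, so that the higher count is near the share over all genes. They had 7 differences below 0 and 7 above, with a median of -0.01 and a range of -0.52 to 0.27. The 8 exporters had a median of -0.06 and a range of -0.53 to 0.15, so that the medians differed by 0.05. Exporters were counted by family name. The lowest of them, Slc30a9, is linked to export from mitochondria, which would bring zinc toward the cytosol. Averaged over the family within each array, the importers stood at 6.96, 6.98 and 6.99 in vehicle and 6.94, 6.93 and 6.93 in icilin arrays. The exporters stood at 6.76, 6.84 and 6.76 in vehicle and 6.72, 6.63 and 6.69 in icilin arrays. Both family means were thus slightly lower with icilin, by 0.04 for importers and 0.10 for exporters. The importer mean minus the exporter mean was 0.19 ± 0.05 (SD, n = 3) in vehicle and 0.25 ± 0.04 in icilin arrays, with overlapping values (0.14 to 0.23 against 0.22 to 0.29). The difference of the medians ranged from 0.01 without vehicle replicate 2 to 0.10 without vehicle replicate 3, and fell to 0.0014 when dim genes were left out. No test was made of these family values, since the members were named with results of the data known.

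The 3 copper and iron carriers on the list did not pass, none of them with an unadjusted p under 0.05. Slc31a1, the copper importer of the plasma membrane, had a difference of -0.01 with a 95% interval of -0.16 to 0.14. Slc11a2, which carries iron out of endosomes, stood at 0.00 with an interval of -0.17 to 0.18. Atp7a, a copper-exporting ATPase, had vehicle values of 6.08, 6.61 and 6.66 and icilin values of 6.28, 6.14 and 6.21. Vehicle replicate 1 fell below every icilin array of this gene, and the difference was -0.25 ± 0.15 (SE; limma adjusted p = 0.483). Without vehicle replicate 1 it was -0.43 with an adjusted p of 0.0656 by limma. It was -0.17 without vehicle replicate 2 (adjusted p = 0.722) and -0.14 without vehicle replicate 3 (adjusted p = 0.731).

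Its paralog Atp7b, the copper ATPase defective in Wilson disease, is not on the list and fell. It read 5.63, 5.79 and 5.68 in vehicle and 4.42, 4.59 and 4.20 in icilin arrays. The groups did not overlap, and the gap between them was wider than the range of either. That is a difference of -1.30 ± 0.11 (SE; limma adjusted p = 0.00198), or 2.46-fold. The fall of Atp7b exceeded the difference of Atp7a by 1.05 ± 0.21 (SE). The exact permutation p was 0.1, the smallest possible, and 0.114 when adjusted over the 8 pairs compared. Because Atp7b was named for being called in these data, that p adds no separate support. Atp7b was the called gene among 10 measured of 13 other copper handling genes, and the other 9 did not pass at any fold. One of them, the copper chaperone gene Atox1, which delivers copper to both ATPases, stood at -0.29 (limma adjusted p = 0.290) and was named after its value was seen.

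**Figure D5:**
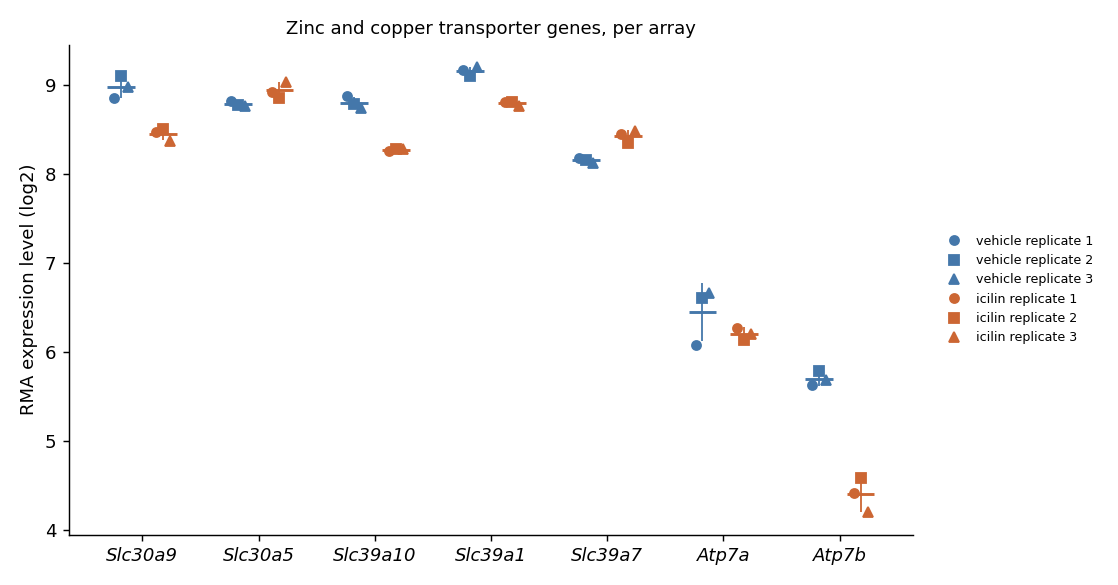
RMA level (log2) of transporter genes on each array; points are arrays, horizontal lines group means and vertical lines SD (n = 3). Slc30a9, Slc39a10, Slc39a1 and Atp7b are lower in every icilin array than in any vehicle array, Slc39a7 is higher, and Atp7a overlaps.

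Of 7 other genes reported to depend on MTF1, all measured, Ndrg1 was called lower (1.03% of all genes were) and 6 were not called. Ndrg1, which is also induced by hypoxia, went from 9.32, 9.48 and 9.54 in vehicle to 7.95, 8.04 and 8.10 in icilin arrays (-1.42 ± 0.08, limma adjusted p = 0.000704). With the mean of its probe sets in place of the brightest, the difference was smaller, at -1.10 (limma adjusted p = 0.000743). Without the fold limit 3 of the 7 were higher (2.27% of all genes), named after their values were seen. They were the selenoprotein genes Selenow (0.51, adjusted p = 0.0332) and Selenoh (0.38, adjusted p = 0.0991) and the glutathione synthesis gene Gclc (0.30, adjusted p = 0.0897). Without icilin replicate 1 none of these 3 passed by limma, at adjusted p of 0.123 for Selenow, 0.234 for Selenoh and 0.237 for Gclc. Selenow was also lost without icilin replicate 3 (0.114) or vehicle replicate 2 (0.108), Selenoh passed with 1 array left out only without vehicle replicate 1 (0.0621), and Gclc was lost whichever array was left out (0.139 to 0.237). At an unadjusted p under 0.05, 2 of the 7 were lower and 3 higher, against 8.05% and 9.09% of all genes. Besides Ndrg1, the lower gene was Txnrd2 (-0.24, limma adjusted p = 0.123), named after its value was seen. The list had a median of -0.08.

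Iron handling genes were called neither by limma nor by SAM in 19 measured of 21, and an unadjusted p under 0.05 was reached by 2 higher genes and 1 lower gene, against 9.09% and 8.05% of all genes, so that both counts are near those shares. The same 3 genes had an adjusted p under 0.1, so that 2 of the 19 were higher and 1 lower, against 2.27% and 3.00% of all genes. The smallest p was that of Flvcr1, a heme exporter gene (0.34 ± 0.06, limma adjusted p = 0.0303). Named after their values were seen, the heme-degrading enzyme gene Hmox1 was higher, at 6.74, 6.84 and 6.52 in vehicle and 7.18, 7.09 and 7.09 in icilin arrays (0.42, adjusted p = 0.0680). Also named so, the transferrin receptor gene Tfrc was lower (-0.26, adjusted p = 0.0818). All 3 stayed short of 1.5-fold. With 1 array left out, Tfrc passed in no fit (limma adjusted p of 0.136 to 0.234). Hmox1 passed only without vehicle replicate 2 (0.0857, otherwise up to 0.200). Flvcr1 passed only without icilin replicate 1 (0.0975) or vehicle replicate 1 (0.0795), and rose to as much as 0.114 otherwise. Among 3 measured of 4 other zinc genes limma and SAM called none, none had an unadjusted p under 0.05, and Tmem163, a zinc efflux protein gene, had the smallest p (0.17, adjusted p = 0.588).

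Markers of other cells were read on the same arrays as Mt1 and Mt2. The 4 metallothionein genes summed on the linear scale to 2080 to 2457 units in vehicle and 1024 to 1324 in icilin arrays. The 6 myeloid markers summed to 123 to 132 units in vehicle and 110 to 120 in icilin arrays. None of them was called by limma or SAM. At an unadjusted p under 0.05, 2 of the 6 were lower and 1 was higher, against 8.05% and 9.09% of all genes. The 4 measured B cell markers summed to 120 to 132 units in vehicle and 144 to 153 in icilin arrays, a rise that includes Ms4a1. Of these 4, 2 were higher with an unadjusted p under 0.05, Ms4a1 and Pax5 (0.21, limma unadjusted p = 0.0469), and none was lower. The 4 dendritic cell markers summed to 64.1 to 71.0 and 61.0 to 66.7 units, and the 5 natural killer and CD8 markers to 124 to 139 and 137 to 177 units. Of these 5, the CD8 gene Cd8b1 was higher by 0.39 (limma unadjusted p = 0.0148). The dim natural killer gene Klrb1c was lower by 0.52 (limma unadjusted p = 0.00954), and in the other 3 the groups overlapped. The 2 measured red cell and platelet markers summed to 38.6 to 43.1 and 34.2 to 38.1 units. The dim platelet gene Pf4 was lower by 0.49 (limma unadjusted p = 0.00919), and in the other, Itga2b, the groups overlapped. The part of such cells in the metallothionein falls was not tested.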

How the data were processed

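The samples were 6 arrays, 3 per group, grouped by their titles. The authors deposited log2 values made with RMA, per the series design text, from GeneChip Mouse Gene 2.0 ST arrays; the genome build and RMA version are not given in the sources used here. RMA makes array distributions alike, so a shift shared by most genes cannot be seen, and differences of dim genes are compressed. Of 41345 probe sets, 23521 have 1 gene symbol in the array annotation, 1814 several and 16010 none. The brightest single-symbol probe set per gene was kept, giving 22180 genes. The test was limma (version 3.58.1; R 4.3.3; lmFit, eBayes; 4 residual and 3.07 prior degrees of freedom), two-sided, with Benjamini-Hochberg adjustment over all genes; a call needs an adjusted p under 0.1 and 1.5-fold. SE and 95% intervals are limma's, except that SE of differences between 2 genes are from the arrays' spread.

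The members and lists were chosen with earlier results of these data known. Arrays were given in full for called members, members with an adjusted p under 0.1, the metallothionein genes, Mtf1 and the brightest 3 measured genes of either zinc family, and Atp7a was added after its values were seen. From the other lists, called genes or else the gene with the smallest p were named.

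Alternatives were the replicate block, an intensity trend with robust variances, median centring, quantile normalization, leaving out dim genes, the mean of probe sets, each array left out, SAM (the study's test, written anew, 20 assignments) and other thresholds. Limma and SAM were tested on simulated data. Motifs were searched in RefSeq promoter windows (GRCm38.p6) with Python 3.11.15 and pandas 2.3.3; matplotlib 3.10.9 drew the figures.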

Additional observations from a re-analysis of the deposited data

How the results depend on the processing

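Mt1 and Mt2 kept their calls under all 15 alternatives, with a highest adjusted p of 0.0310 for Mt1 and 0.0852 for Mt2. With the replicate block, members called lower stayed at 2 and higher at 0, all genes at 210 lower and 73 higher; it gave those 2 highest adjusted p, by limma. It changed no call at 1.5-fold among the genes named. Same-numbered arrays did not deviate together (r of -0.02 to -0.01 across genes), and neither did differently numbered ones (-0.02 to 0.04). Since no combination stood out, these values cannot tell whether a replicate number names a mouse, and no label says so. Without the fold limit, 666 genes were lower and 504 higher, against 229 and 82, and of the members 5 and 1, against 2 and 0. With 1 array left out, members called lower numbered 2 to 3 and higher 0, and all genes 207 to 241 lower and 72 to 92 higher. At the adjusted p alone, Slc30a9 and Slc39a10 passed in all 13 other fits, Slc39a1 in 11 (lost with the replicate block, adjusted p = 0.117, and without icilin replicate 3) and Slc39a7 in 5 (with the block, adjusted p = 0.206). Of the other genes named without the fold limit, the block left Selenow (0.0549) and Herpud1 (0.0720) under an adjusted p of 0.1, and Flvcr1 (0.127), Hmox1 (0.130), Selenoh (0.170), Gclc (0.186) and Tfrc (0.200) above it. The importer minus exporter difference of 0.045 ranged from 0.013 to 0.099 with 1 array left out.

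Some genes near 0 changed sign, none of them called. Centring the arrays on their median moved every gene by the same 0.026, which turned genes that lay closer to 0 than that, to 0.0014 for Slc30a2, 0.0098 for Slc30a3, 0.016 for Slc31a1, 0.012 for Nudt21, 0.0050 for Ogfod1 and 0.012 for Bbs2. After quantile normalization, where the cause was not tested, the values were 0.00067 for Slc30a2, 0.012 for Slc30a3, -0.0050 for Slc11a2 and 0.011 for Bbs2. With 1 array left out, and so fewer samples, the ranges were -0.042 to 0.045 for Mt3, -0.0079 to 0.083 for Mt4, -0.13 to 0.083 for Slc30a2, -0.050 to 0.046 for Slc30a3, -0.099 to 0.0028 for Slc30a6 and -0.027 to 0.10 for Slc39a2. They were -0.12 to 0.013 for Slc39a13, -0.034 to 0.0084 for Slc31a1, -0.044 to 0.047 for Slc11a2, -0.036 to 0.018 for Nudt21, -0.065 to 0.024 for Ogfod1 and -0.13 to 0.13 for Bbs2. Dim genes (Slc30a2, Slc30a8, Slc39a12 and Mt4 among the members) have little signal over background, which limits what can be seen in them.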
